A study of Mus musculus with 3 samples.

Results

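The heat shock and chaperone genes were followed in whole mouse skin before birth, at embryonic day 18.5 (E18.5), soon after it, at postnatal day 3 (P3), and in the adult at 10 weeks. They were taken by name, as every row whose symbol starts with Hspa, Hspb, Hspd, Hspe, Hsph, Hsp90, Dnaja, Dnajb or Dnajc, a rule that uses no measured value. This gave 74 of 21881 gene rows, 29 with an Hsp symbol and 45 with a Dnaj symbol. The prefixes also take in Hspbp1, Hspbap1 and Hspb11, which are not heat shock proteins. All animals were of the FVB strain, and the labels name no other allele, treatment or sex. Each age is 1 sample whose value per gene is headed as an average, while the design text mentions 2 biological replicates per stage. Spread between animals therefore could not be set against any difference below, no p-value is given, and sequencing depth is unknown. Levels are FPKM (fragments mapped, scaled to transcript length and to the library's mapped fragments), which allow a comparison between genes of different length.

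Chaperones bind unfolded proteins and help them fold, travel or be degraded. Hsp70 proteins (Hspa genes) bind and release clients in an ATP cycle, J-domain proteins (Dnaj genes) bring them clients and start ATP hydrolysis, and Hsp110 proteins (Hsph1, Hspa4, Hspa4l) exchange the nucleotide. Hsp90 proteins finish the folding of kinases and receptors, the chaperonin Hsp60 (Hspd1) with its lid Hsp10 (Hspe1) works in mitochondria, and the small heat shock proteins (Hspb genes) hold clients without ATP. Heat shock factor 1 (Hsf1) switches on the stress-inducible genes through repeats of GAA and TTC, called heat shock elements, and the unfolded protein response does so for the endoplasmic reticulum (ER) through the ER stress element. In skin, Hspb1 is a known product of differentiating keratinocytes, while several other small heat shock genes are known chiefly from muscle.

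The composition of the samples differed in ways that the age labels do not name. Xist was at 0.0433 FPKM at E18.5, 64.6 FPKM at P3 and 73.0 FPKM at 10 weeks, and the Y-linked Ddx3y was at 24.1 and 0.0218 FPKM and then listed at 0, so that E18.5 had a male and the later ages a female pattern. None of the 74 genes lies on chromosome X or Y, but sex and age cannot be told apart in either comparison with E18.5. The 20 skeletal muscle markers summed to 6413 FPKM at E18.5, 547.7 FPKM at P3 and 30267 FPKM at 10 weeks, and none was listed at 0. The 12 immediate early genes, such as Fos and Egr1, summed to 151 FPKM at E18.5, 512 FPKM at P3 and 2533 FPKM at 10 weeks. The 10 proliferation markers summed to 469, 522 and 169 FPKM in the same order. Of 14 keratinocyte markers with a value at both ages, all 14 were higher at P3, set against E18.5, and 11 of them by 2-fold. At 10 weeks, set against P3, 13 of the 14 were lower, and 8 by 2-fold. Of 11 dermal fibroblast markers so compared, all 11 were lower at P3, set against E18.5, and 9 by 2-fold. The 9 immune markers summed to 124, 213 and 3255 FPKM. In bulk tissue, fewer cells of a type and less RNA per cell cannot be told apart.

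A chaperone gene is called higher or lower at the later age when log2 of (FPKM + 1) differs by at least 1, a 2-fold difference on this scale, which understates the change of low genes. It is called expressed at 1 FPKM or more at 1 or more ages. Scaling the samples on the median of ratios, in place of the deposited scale, would shift log2 ratios by -0.12 for P3 over E18.5, by -0.10 for 10 weeks over P3 and by -0.22 for 10 weeks over E18.5. The upper quartile would shift them by -0.21, -0.20 and -0.41. On the deposited scale the median difference of all expressed genes was 0.03, 0.14 and 0.22 in those comparisons.

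Of the 74 genes, 68 were expressed, and 64 of these (94.1%) stood at 1 FPKM or more at all 3 ages, beside 82.5% of all expressed genes. The 6 under 1 FPKM throughout were Dnajb7, Dnajb8, Dnajc22, Dnajc5b, Dnajc5g and Hspb9. Of these, Dnajc5g was listed at 0 at every age. No chaperone value bore a failure mark. Together the family made up 0.740% of all FPKM at E18.5, against 0.709% in P3 skin and 0.744% in skin of 10 weeks. The same 5 genes led at every age, Hspa8, Hsp90ab1, Hspb1, Hspa5 and Hsp90b1, with 55.3%, 57.1% and 54.5% of the family's FPKM. Between P3 and E18.5, 3 of 68 members were higher and 6 were lower at P3, beside 9.56% higher, 9.42% lower and 19.0% either way of all 14653 genes compared. Between 10 weeks and P3, 11 were higher and 2 were lower at 10 weeks, beside 19.8% higher, 9.98% lower and 29.8% either way of 14655 genes. Between 10 weeks and E18.5, 10 were higher and 0 were lower at 10 weeks, beside 16.1% higher, 6.92% lower and 23.0% either way of 14659 genes. The 0 becomes 3 (Dnajc9, Hspa1b and Hspe1) with the median of ratios and 5 (these with Hspa1a and Hspd1) with the upper quartile. In all, 47 of the 68 passed 2-fold in none of the comparisons. The median of a gene's largest difference in size was 0.66 (log2) among the members and 0.81 among all expressed genes. The 3 comparisons share samples, since each age enters 2 of them.

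The members were sorted by known compartment or role into 8 groups, with 9 genes left over. Summed FPKM of the 6 small heat shock genes was 384 FPKM at E18.5, 709 FPKM at P3 and 967 FPKM at 10 weeks, and that of the 8 mitochondrial genes 788, 551 and 566. The 12 ER genes summed to 771, 602 and 913 FPKM. The 8 stress-inducible cytosolic genes (371, 334 and 356 FPKM) and the 11 constitutive cytosolic genes (1804, 1787 and 1756 FPKM) differed far less in their sums. The sum over all 74 genes was 4399, 4283 and 4872 FPKM.

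**Figure D1:**
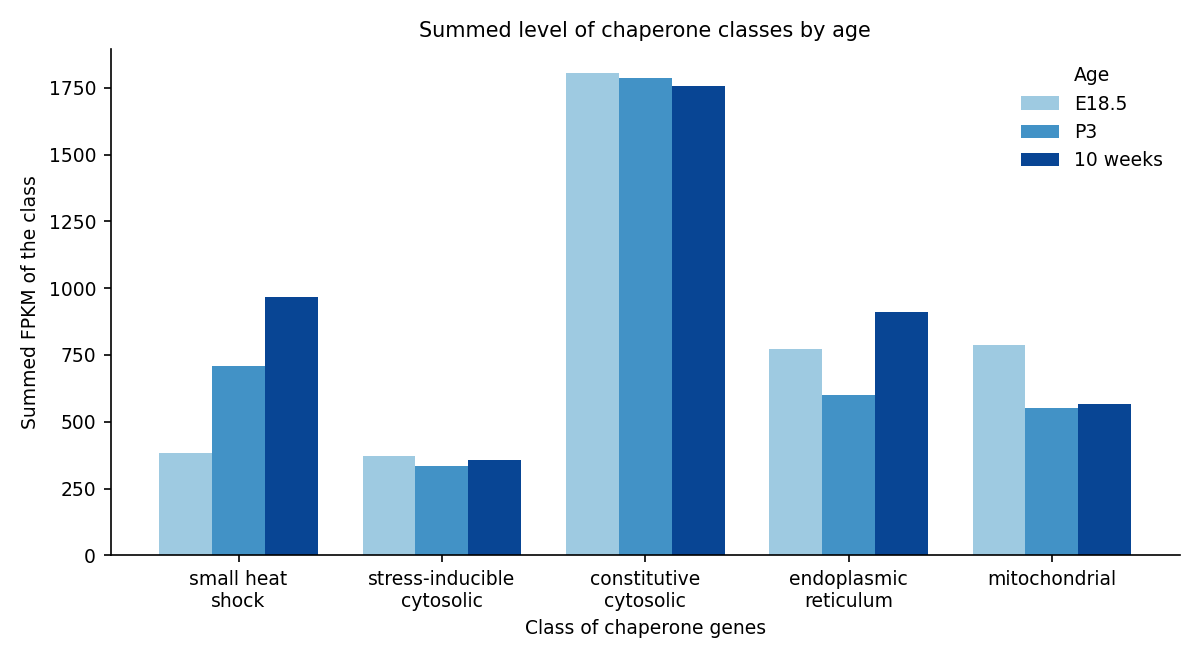
Summed FPKM (vertical axis, from 0) of 5 groups of chaperone genes at E18.5, P3 and 10 weeks; each bar is 1 sum over the averaged values of 1 age, without error. The small heat shock bars stand at 384, 709 and 967, the ER bars are lowest at P3, and the mitochondrial bars are highest at E18.5.

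Small heat shock genes held the largest differences of the family, and they followed 2 courses. Hspb2, Hspb3, Hspb6 and Hspb7 were lowest at P3 and highest at 10 weeks, while Hspb1 and Hspb8 were lowest at E18.5. Hspb6 encodes Hsp20, a small heat shock protein of smooth, cardiac and skeletal muscle (mm9 chromosome 7, 31338321 to 31340458). It stood at 10.3 FPKM at E18.5, 4.33 FPKM at P3 and 183 FPKM at 10 weeks. The log2 difference was -1.09 for P3 over E18.5, 5.11 for 10 weeks over P3 and 4.02 for 10 weeks over E18.5, the largest in the family for both comparisons with 10 weeks. Its adult level ranked it behind Hspb1 among the small heat shock genes, where at E18.5 and P3 it had also been below Hspb8 and Hspb2.

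Hspb2 (chromosome 9, 50559177 to 50560459) encodes a binding partner of myotonic dystrophy protein kinase, and Hspb3 (chromosome 13, 114453104 to 114453884) the protein it forms complexes with in muscle. Hspb2 was at 17.4, 5.95 and 33.7 FPKM at E18.5, P3 and 10 weeks. Hspb3 was at 5.11, 0.263 and 11.1 FPKM, so that its P3 value lay under 1 FPKM and is imprecise. That value is marked NOTEST, where those at E18.5 and 10 weeks are marked OK. Hspb7, a small heat shock gene of heart and skeletal muscle (chromosome 4, 140976694 to 140981225), was at 8.11, 1.36 and 29.0 FPKM. All 3 were lower at P3, set against E18.5, and higher at 10 weeks, set against P3. Log2 differences for P3 over E18.5 were -1.40, -2.27 and -1.95 for Hspb2, Hspb3 and Hspb7, and for 10 weeks over P3 they were 2.32, 3.26 and 3.67. The P3 calls of Hspb3 and Hspb6 are lost with a pseudocount of 5. Against E18.5, the adult value was past 2-fold for Hspb7 (1.72), and was 0.92 for Hspb2 and 0.98 for Hspb3.

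Most muscle markers had the same order of ages. Of the 20, 19 were lower by 2-fold at P3, set against E18.5, and 18 were higher by 2-fold at 10 weeks, set against P3. The exceptions at 10 weeks were Myh3 (44.0, 1.03 and 0.169 FPKM) and Myh8 (188, 13.5 and 1.36 FPKM), the embryonic and perinatal myosins, of which Myh8 was lower by 2-fold. Acta1, the actin of skeletal muscle, was at 925, 108 and 4107 FPKM, Ckm, its creatine kinase, at 456, 26.3 and 3075 FPKM, and desmin, Des, at 95.8, 10.8 and 450 FPKM. Set against desmin at the same age, the FPKM ratio of Hspb7 was 0.0847, 0.126 and 0.0644, and that of Hspb3 was 0.0534, 0.0244 and 0.0246. The ratio of Hspb2 was 0.182, 0.552 and 0.0749. The ratio of Hspb6 was 0.108, 0.402 and 0.407. Relative to desmin, Hspb6 was thus higher at 10 weeks than at E18.5, and Hspb2, Hspb3 and Hspb7 were lower. For Hspb6 the direction depends on the marker chosen. Its log2 difference for 10 weeks over E18.5 was 4.02, while the 20 muscle markers ranged from -6.32 to 6.94, with a median of 2.80. Desmin is also made by smooth muscle. A low P3 value was not particular to muscle markers. Of 10 adipocyte markers, 8 were lower and 1 higher by 2-fold at P3, set against E18.5. All 10 were higher by 2-fold at 10 weeks, set against P3. Of 8 endothelial markers, 8 were lower at P3 and 6 were higher at 10 weeks in the same comparisons. The part of muscle or other cell content in the levels of Hspb2, Hspb3, Hspb6 and Hspb7 was not tested. Of 4 related genes that the name rule does not cover, 3 were expressed, each lowest at P3 and highest at 10 weeks. Cryab, the alpha-B crystallin, a small heat shock protein, was at 34.6, 25.1 and 234 FPKM, and within 2-fold at P3, set against E18.5 (-0.45). The myosin chaperone Unc45b was at 7.52, 0.731 and 22.7 FPKM, and its partner Smyd1 at 9.14, 0.493 and 41.6 FPKM. Cryaa, the 4th, stayed under 1 FPKM (0.334, 0.618 and 0.077 FPKM).

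Hspb1, Hsp27 in human and Hsp25 in mouse (chromosome 5, 136363789 to 136365433), was the most abundant small heat shock gene at every age. It was at 308 FPKM at E18.5, 616 FPKM at P3 and 579 FPKM at 10 weeks. The P3 value lay just below the 2-fold threshold against E18.5 (log2 difference 1.00 when rounded), and the adult value was 0.91 above E18.5. Hspb8, the partner of Bag3 in the selective autophagy of damaged proteins (chromosome 5, 116858504 to 116872873), was at 34.6, 81.3 and 131 FPKM. Set against E18.5, it was higher at P3 (1.21) and at 10 weeks (1.88). The step from P3 to 10 weeks was 0.68. Bag3 itself was at 13.8, 16.1 and 23.3 FPKM, under 2-fold in each comparison. In the same samples the keratinocyte markers Krt5 (1058, 2638 and 816 FPKM) and Krt14 (952, 2439 and 646 FPKM) were higher at P3 than at both other ages. The ratio of Hspb1 to Krt5 was 0.291, 0.233 and 0.709, and that of Hspb8 to Krt5 was 0.0328, 0.0308 and 0.160. Which age had the highest ratio of Hspb1 depended on the marker: it was 10 weeks for 10 of the 14 keratinocyte markers with 3 values, E18.5 for 3 and P3 for 1. For Hspb8 it was 10 weeks for all 14. The part of keratinocyte content was not tested. Within the 6 small heat shock genes, Hspb1 held 80.3%, 86.9% and 59.9% of the summed FPKM, and Hspb6 2.69%, 0.611% and 18.9%.

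**Figure D2:**
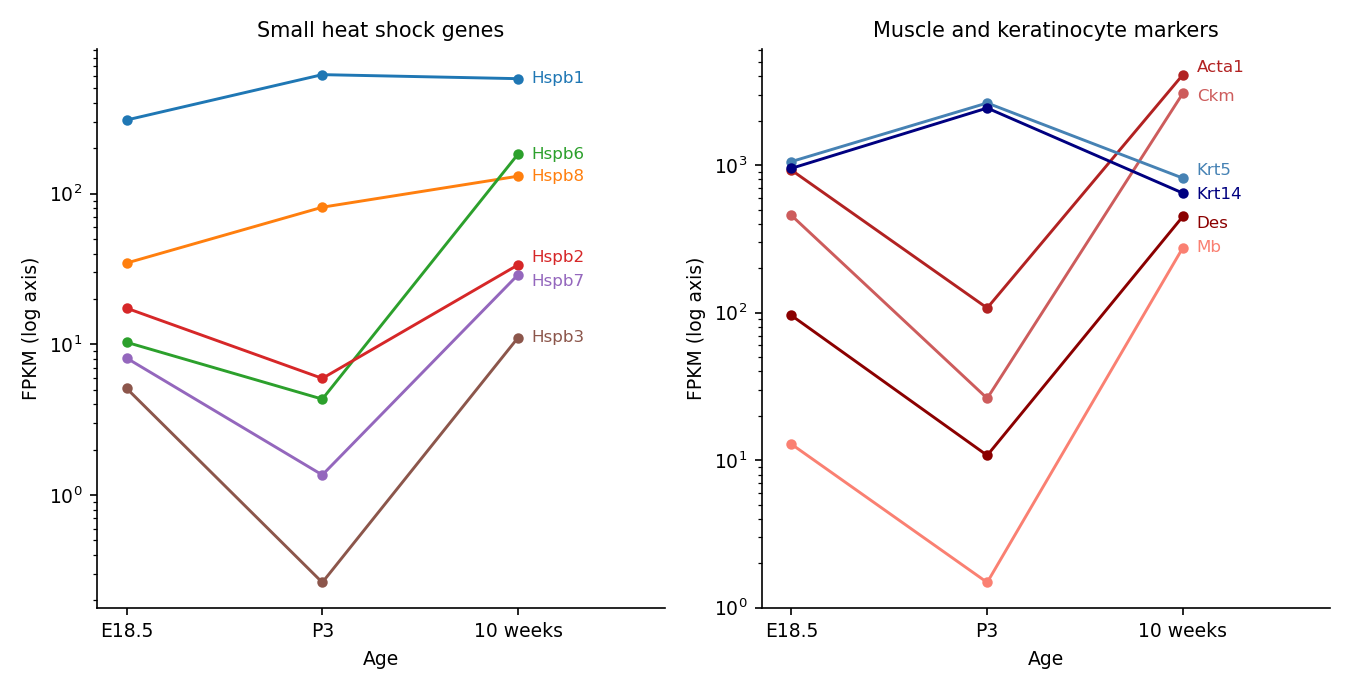
FPKM on a log axis at the 3 ages for the 6 small heat shock genes (left) and for muscle (red) and keratinocyte (blue) markers (right); each point is 1 averaged value, without error. Hspb2, Hspb3, Hspb6 and Hspb7 dip at P3 like the muscle genes, while Hspb1 (308, 616 and 579 FPKM) and Hspb8 do not.

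Sequences before the annotated starts of Hspb1 and Hspb6 are shown because these genes carry the highest level and the largest difference of the small heat shock genes. They are from RefSeq, build GRCm38.p6, which differs from the mm9 of the gene spans, and cover the 250 bases before the start, 5′ to 3′ on the gene's strand. Capitals mark GAANNTTC, the core of a heat shock element, and, in Hspb6, TATAAA. RefSeq lists another start for Hspb6, whose window holds neither.
Hspb1, chr5:135887669-135887918, plus strand: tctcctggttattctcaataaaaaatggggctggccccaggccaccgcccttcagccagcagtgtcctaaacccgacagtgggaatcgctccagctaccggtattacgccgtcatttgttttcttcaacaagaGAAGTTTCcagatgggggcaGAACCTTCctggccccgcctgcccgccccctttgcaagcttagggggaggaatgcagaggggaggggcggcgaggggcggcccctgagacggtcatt
Hspb6, chr7:30553051-30553300, plus strand: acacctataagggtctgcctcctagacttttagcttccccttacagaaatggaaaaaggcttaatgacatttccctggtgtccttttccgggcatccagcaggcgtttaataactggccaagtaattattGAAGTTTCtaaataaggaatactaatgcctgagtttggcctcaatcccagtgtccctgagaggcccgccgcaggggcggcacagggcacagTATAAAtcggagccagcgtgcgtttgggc

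Promoter windows were at hand for 60 of the 74 genes, each running from 250 bases before to 50 bases after the start. GAANNTTC, which reads alike on both strands, was in the windows of 14 of the 60 (23.3%), beside 9.04% of all 27025 genes with a window. Among the small heat shock genes with a window it was found for Hspb1, Hspb3, Hspb6 and Hspb8, whose levels followed different courses. Its other phase, TTCNNGAA, was in 6 of 60 (10%), beside 9.6% of all genes. A run of GAA, TTC and GAA, each 2 bases apart, overlaps both and was searched on both strands. It was in 4 of 60 (6.67%, beside 0.662% of all genes), namely Hspd1, Hspe1, Hsph1 and Dnajb6, and in Hsph1 it lies after the start. TATAAA, on either strand, was in 4 of 60 (6.67%, beside 15.7% of all genes), Hspb3 and Hspb6 among them. A match is a description of letters only.

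The stress-inducible genes of the cytosol had no common order of ages. The main inducible Hsp70 genes, Hspa1a (chromosome 17, 35106304 to 35109101) and Hspa1b (chromosome 17, 35093374 to 35096183), were the only members lower at 10 weeks than at P3 by 2-fold on the deposited scale. Hspa1a was at 19.7 FPKM at E18.5, 28.4 FPKM at P3 and 11.7 FPKM at 10 weeks. Hspa1b was at 34.9, 48.9 and 19.6 FPKM. Both were highest at P3 and lowest in the adult, with log2 differences of -1.21 and -1.28 for 10 weeks over P3. The call for Hspa1a is lost, narrowly, with a pseudocount of 5, and both calls are kept under the other settings tried. These genes are near-identical neighbours: 58.8% of the stretches of 50 bases in the longest annotated Hspa1a transcript also occur in that of Hspa1b. Reads can be split between them differently in each sample, so the sum is safer. It was 54.6 FPKM at E18.5, 77.3 FPKM at P3 and 31.3 FPKM at 10 weeks, and was also lower at 10 weeks than at P3 (-1.28).

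The promoters of this pair are shown because the genes had the same order of ages. Of the 250 bases compared, 247 were identical. Capitals mark GAANNTTC, at positions -104 to -97 from the start in each.
Hspa1a, chr17:34972157-34972406, minus strand: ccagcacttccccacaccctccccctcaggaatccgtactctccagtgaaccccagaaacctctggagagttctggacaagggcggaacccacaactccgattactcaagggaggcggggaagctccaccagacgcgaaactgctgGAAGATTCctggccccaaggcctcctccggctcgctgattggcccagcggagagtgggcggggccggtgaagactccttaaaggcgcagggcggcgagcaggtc
Hspa1b, chr17:34959239-34959488, minus strand: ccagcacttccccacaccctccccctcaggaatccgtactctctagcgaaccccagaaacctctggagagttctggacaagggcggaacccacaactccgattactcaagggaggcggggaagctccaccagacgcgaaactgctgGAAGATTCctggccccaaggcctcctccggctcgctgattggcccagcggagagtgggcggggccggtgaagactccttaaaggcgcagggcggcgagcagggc

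Other inducible genes went other ways between P3 and 10 weeks. Hsph1, the inducible Hsp110, was at 29.5, 15.6 and 24.5 FPKM, and Hsp90aa1, the inducible Hsp90, at 179, 131 and 140 FPKM, both lowest at P3. Dnajb1, the chief inducible J protein and partner of inducible Hsp70, was at 34.5, 45.2 and 50.1 FPKM. Dnaja1 was at 44.8, 34.1 and 51.1 FPKM. None of these 4 passed 2-fold on the deposited scale, though Hsph1 does at P3, set against E18.5, with the upper quartile. Dnajb4, a J protein abundant in heart and muscle, was at 19.9, 16.2 and 35.9 FPKM and was higher at 10 weeks than at P3 (1.10), which does not hold with a pseudocount of 5, the upper quartile or, narrowly, the median of ratios. Dnaja4 was at 8.13, 14.3 and 22.7 FPKM and was higher at 10 weeks than at E18.5 (1.37), which is narrowly lost with the upper quartile. The 12 immediate early genes, which respond quickly to handling and other stimuli, were all higher by 2-fold at 10 weeks than at E18.5. Against P3, 11 were higher by 2-fold at 10 weeks, among them Fos (7.93, 57.9 and 649 FPKM). Of the 8 stress-inducible genes, 4 had their highest value at 10 weeks, and 2, Hspa1a and Hspa1b, their lowest. Both counts are near the shares of all genes with 3 values, 47.7% highest and 23.8% lowest at 10 weeks. The part of handling in these levels was not tested. Hsf1, the master regulator, was at 15.1, 15.3 and 16.6 FPKM.

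Of 24 co-chaperones and heat shock factors outside the name rule, 0 were lower and 1 was higher by 2-fold at P3, set against E18.5. By the same measure, 2 were higher and 1 was lower at 10 weeks than at P3. Against E18.5, 1 was higher at 10 weeks and 0 were lower. Their median differences were 0.04, 0.05 and 0.10. Unc45a, a myosin and Hsp90 co-chaperone of general expression, was the one higher at P3 (13.9, 32.0 and 21.4 FPKM), which is lost with the upper quartile. With a pseudocount of 5 no gene of the list is past 2-fold in any comparison. Hsf2 (7.98, 5.62 and 15.5 FPKM) and Hsf4 (0.177, 0.228 and 2.20 FPKM) were higher at 10 weeks than at P3. Bag2, an inhibitor of the ubiquitin ligase Chip, was lower (9.39, 15.8 and 6.26 FPKM). Stip1, which links Hsp70 with Hsp90, was at 76.2, 76.2 and 58.4 FPKM.

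The constitutive cytosolic genes held the highest levels of the family and mostly small differences. Hspa8, the constitutive Hsp70 (chromosome 9, 40609356 to 40613283), was at 1052 FPKM at E18.5, 775 FPKM at P3 and 918 FPKM at 10 weeks. It shares its listed span with the row LOC624853, so that its level may be divided. Within the cytosolic Hsp70 sum of Hspa8, Hspa1a and Hspa1b it held 95.1%, 90.9% and 96.7%. Hsp90ab1, the constitutive Hsp90 (chromosome 17, 45704727 to 45710210), was at 459, 614 and 488 FPKM, the opposite order of ages to Hsp90aa1 between E18.5 and P3. The ratio of Hsp90ab1 to Hsp90aa1 was 2.56, 4.69 and 3.48. Hspa4, an Hsp110, was at 44.9, 60.2 and 45.4 FPKM, and Hspa14, a ribosome-associated Hsp70, at 33.7, 48.5 and 31.2 FPKM. Hspbp1, a nucleotide exchange factor, was at 18.2, 26.5 and 18.5 FPKM. All of these were highest at P3 apart from Hspa8. In all, 7 of the 11 (63.6%) had their highest value at P3, beside 33.8% of all genes. The group's median difference was 0.42 for P3 over E18.5 and -0.21 for 10 weeks over P3, beside 0.03 and 0.14 for all genes, with no call in the first comparison and 1 in the second. With all 3 other scalings, 9 of 11 were still above 0 for P3 over E18.5.

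That 1 call was Dnajb5 (chromosome 4, 42965966 to 42971604), a J protein of the cytosol, at 7.42, 5.35 and 27.8 FPKM. It was higher at 10 weeks than at P3 (2.18) and than at E18.5 (1.77), under every setting tried. It was the J-protein gene with the largest difference in either comparison with 10 weeks. Hspa4l, a relative of Hspa4, was at 4.80, 9.33 and 12.2 FPKM and was higher at 10 weeks than at E18.5 (1.18), a call lost with both other scalings and a pseudocount of 5. Among the remaining members, Dnaja2 was at 50.2, 76.4 and 66.1 FPKM, Dnajb6, which keeps aggregation-prone proteins in solution, at 58.4, 73.4 and 69.3 FPKM, and Dnajc7, which binds Hsp70 and Hsp90, at 56.7, 71.4 and 47.0 FPKM. Dnajb2, best known from neurons, was at 19.2, 26.9 and 33.0 FPKM.

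The ER genes were nearly all highest in the adult. At 10 weeks, 11 of 12 stood above the other ages, beside 47.7% of all genes with 3 values, and 12 of 12 were above E18.5, a count that becomes 9 with the median of ratios and 7 with the upper quartile. For 10 weeks over P3, 11 of 12 were above 0 under each scaling, with a median of 0.57 on the deposited scale beside 0.14 for all genes. Most of these differences were under 2-fold: 1 gene was higher at 10 weeks than at P3, 2 were higher than at E18.5, and 0 were lower. Hspa5, the ER Hsp70 known as BiP (chromosome 2, 34627610 to 34632049), was at 285 FPKM at E18.5, 222 FPKM at P3 and 334 FPKM at 10 weeks. Hsp90b1, the ER Hsp90 known as Grp94 (chromosome 10, 86153586 to 86168189), was at 329, 220 and 335 FPKM. The pair was lowest at P3, with log2 differences of 0.59 and 0.61 for 10 weeks over P3. Hspa13, a further ER Hsp70, was at 13.9, 9.22 and 14.0 FPKM.

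Both ER genes past 2-fold encode J proteins. Dnajc3, which passes clients to BiP (chromosome 14, 119337154 to 119380924), was at 19.0, 18.5 and 41.7 FPKM, higher at 10 weeks than at P3 (1.13) and than at E18.5 (1.09). Dnajb9, which acts in ER-associated degradation and restrains the stress sensor Ire1 (chromosome 12, 45306884 to 45311055), was at 14.4, 17.6 and 32.5 FPKM, higher at 10 weeks than at E18.5 (1.13). The calls against E18.5 are lost with both other scalings and a pseudocount of 5, and that of Dnajc3 against P3 with the upper quartile and a pseudocount of 5. Dnajb11, another partner of BiP, was at 30.8, 38.8 and 47.7 FPKM, and Dnajc10, which reduces disulfide bonds, at 33.4, 23.5 and 41.8 FPKM. The membrane-bound Dnajb12 was at 9.98, 18.6 and 18.1 FPKM, the only ER gene whose highest value was at P3. Dnajb14, Dnajc1, Dnajc14 and Dnajc18, also of the ER membrane, lay between 3.09 and 22.0 FPKM, each highest at 10 weeks.

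Other ER folding and stress genes were also mostly above 0 for 10 weeks over P3. Of 29 expressed ones, 26 were above 0, with a median of 0.51 beside 0.14 for all genes. By 2-fold, 6 were higher and 1 lower, beside 19.8% higher and 9.98% lower of all genes, so that the count of higher genes is near that share. At P3, 0 were higher and 1 lower by 2-fold than at E18.5. With the upper quartile, 1 was higher and 2 were lower by 2-fold at 10 weeks than at P3, and 23 remained above 0. Among the 6 were Xbp1, a transcription factor of the unfolded protein response (92.9, 68.6 and 157 FPKM), Ddit3, its factor Chop (17.9, 10.3 and 24.8 FPKM), Herpud1 of ER-associated degradation (22.3, 26.2 and 60.0 FPKM) and Sdf2l1, a BiP co-factor (21.9, 15.9 and 41.0 FPKM). The others were Ero1lb (1.60, 1.31 and 4.15 FPKM) and Serpinh1. Ero1l, an ER oxidase, was the lower one (15.9, 30.5 and 13.9 FPKM). A pseudocount of 5 leaves 4 of these higher and 0 lower. Against E18.5, 2 genes were higher by 2-fold at 10 weeks and 0 were lower by 2-fold. The 2 were Herpud1 (1.39) and the stress sensor Ern1 (1.15), which was at 2.64, 3.89 and 7.07 FPKM. Serpinh1, the collagen chaperone Hsp47, was at 447, 136 and 311 FPKM, lower at P3 than at E18.5 (-1.71) and higher at 10 weeks than at P3 (1.19). The collagen gene Col1a1 was at 1080, 412 and 354 FPKM and Col1a2 at 1110, 421 and 545 FPKM. Of the 12 dermal fibroblast markers, 5 were higher and 0 lower by 2-fold at 10 weeks, set against P3, with 9 above 0 and 3 below 0. Among the 5 were Dcn (572, 205 and 2217 FPKM) and Lum (349, 95.8 and 422 FPKM). The 10 adipocyte markers summed to 6110, 1889 and 8458 FPKM, with none listed at 0, and this sum, like that of the muscle markers, was lowest at P3. The part of such shifts in the levels of ER genes was not tested.

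The promoters of Hspa5, Hsp90b1 and Dnajc3 are shown because they were the members whose windows held the ER stress element, CCAAT and CCACG with any 9 bases between them, searched on both strands. That is 3 of 60 (5% of the members), beside 0.137% of all genes. Capitals mark it, at -65 to -47 in Hspa5, at -105 to -87 in Dnajc3, and in Hsp90b1 at -212 to -194 and, on the other strand, at -107 to -89.
Hspa5, chr2:34771840-34772089, plus strand: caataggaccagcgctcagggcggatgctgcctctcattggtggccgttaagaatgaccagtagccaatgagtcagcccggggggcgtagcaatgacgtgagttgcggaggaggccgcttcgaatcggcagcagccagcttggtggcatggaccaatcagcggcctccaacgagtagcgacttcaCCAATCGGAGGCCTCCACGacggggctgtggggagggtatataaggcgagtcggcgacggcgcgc
Hsp90b1, chr10:86705445-86705694, minus strand: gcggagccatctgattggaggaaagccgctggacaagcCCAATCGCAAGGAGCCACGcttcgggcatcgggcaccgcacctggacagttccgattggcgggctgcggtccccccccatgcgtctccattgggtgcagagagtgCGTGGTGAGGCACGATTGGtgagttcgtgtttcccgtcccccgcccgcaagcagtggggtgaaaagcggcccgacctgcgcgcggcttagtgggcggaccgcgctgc
Dnajc3, chr14:118937682-118937931, plus strand: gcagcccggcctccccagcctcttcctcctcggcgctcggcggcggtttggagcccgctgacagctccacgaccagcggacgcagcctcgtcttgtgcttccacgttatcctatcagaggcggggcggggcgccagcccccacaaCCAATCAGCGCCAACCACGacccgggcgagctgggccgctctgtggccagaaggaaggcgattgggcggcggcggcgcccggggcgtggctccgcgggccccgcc

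Of the 8 mitochondrial genes, 4 had their highest value before birth, the chaperonin pair, Hspa9 and Dnajc15. Hspe1, Hsp10 (chromosome 1, 55144992 to 55148161), was at 275 FPKM at E18.5, 150.1 FPKM at P3 and 155 FPKM at 10 weeks. Hspd1, Hsp60 (chromosome 1, 55134678 to 55144776), was at 203, 143 and 119 FPKM. The later ages lay below E18.5 by less than 2-fold, with log2 differences for 10 weeks over E18.5 of -0.82 for Hspe1 and -0.76 for Hspd1. Both are past 2-fold with the upper quartile, and Hspe1 also with the median of ratios. The ratio of Hspe1 to Hspd1 was 1.35, 1.05 and 1.30. Hspa9, mortalin, the mitochondrial Hsp70, was at 133, 122 and 107 FPKM. Its import-motor partners differed from it: Dnajc15 was at 69.7, 36.8 and 60.4 FPKM and Dnajc19 at 47.4, 39.3 and 57.2 FPKM. Dnaja3, a J protein of the matrix, was at 25.2, 20.05 and 26.3 FPKM, Dnajc11 of the inner membrane organising complex at 22.0, 25.4 and 20.6 FPKM, and Dnajc30 at 13.0, 14.7 and 19.3 FPKM. None of the 8 passed 2-fold on the deposited scale in any comparison. For P3 over E18.5, Dnajc15 (-0.90) is called lower with both other scalings, and Hspe1 (-0.87) with the upper quartile. Dnajc19, Dnaja1, Dnajb6, Dnajc1, Dnajc14 and Dnajc17 share their listed span with a neighbouring gene, so that reads may be divided between them.

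Hspd1 and Hspe1 lie head to head, with 215 bases between their listed spans in mm9, and the window before the start of Hspe1 overlaps that of Hspd1 on the opposite strand. It is shown because both genes were highest at E18.5, a trait that Hspa9 and Dnajc15 share. Capitals mark a run of alternating TTC and GAA units that holds the run of GAA, TTC and GAA on both strands, at -89 to -72.
Hspe1, chr1:55087898-55088147, plus strand: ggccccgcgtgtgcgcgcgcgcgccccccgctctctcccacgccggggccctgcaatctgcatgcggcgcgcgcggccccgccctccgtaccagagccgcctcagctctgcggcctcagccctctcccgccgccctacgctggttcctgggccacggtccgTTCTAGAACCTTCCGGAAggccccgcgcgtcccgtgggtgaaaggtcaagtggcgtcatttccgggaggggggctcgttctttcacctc

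**Figure D3:**
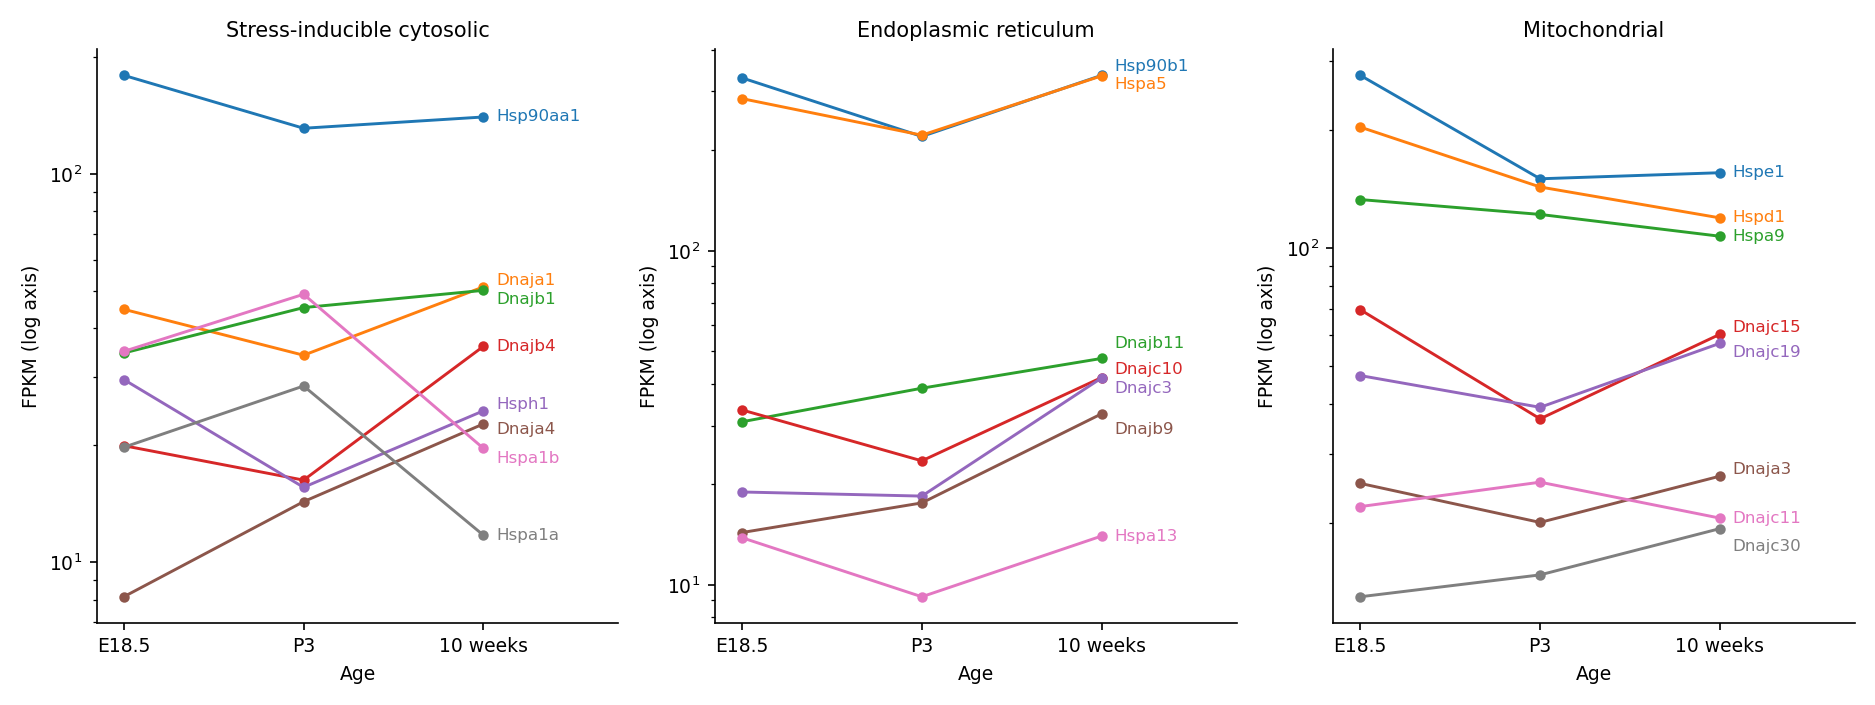
FPKM on a log axis at the 3 ages for the stress-inducible cytosolic genes (left), 7 of the 12 ER genes (middle) and the mitochondrial genes (right); each point is 1 averaged value, without error. Hspa1a and Hspa1b are lowest at 10 weeks, Hspa5 and Hsp90b1 are lowest at P3, and Hspe1 and Hspd1 are highest at E18.5.

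The other calls were those of members outside these groups. Hspa12b, a distant Hsp70 of endothelial cells (chromosome 2, 130953148 to 130971719), was at 12.9, 3.87 and 9.47 FPKM, lower at P3 than at E18.5 (-1.51) and higher at 10 weeks than at P3 (1.10). The 8 endothelial markers summed to 202, 64.8 and 182 FPKM, and all 8 were lower at P3 by 2-fold, set against E18.5. Their part in the level of Hspa12b was not tested. Its relative Hspa12a was at 3.10, 4.84 and 8.79 FPKM, higher at 10 weeks than at E18.5 (1.26). Dnajc27, a small GTPase with a J domain, was at 1.77, 1.36 and 6.09 FPKM, higher at 10 weeks than at P3 (1.59) and than at E18.5 (1.36). Dnajc6, auxilin, which uncoats clathrin vesicles, was at 0.628, 2.57 and 1.47 FPKM, higher at P3 than at E18.5 (1.13). Hspa2, the Hsp70 known from sperm development, was at 4.33, 11.4 and 9.45 FPKM, higher at P3 than at E18.5 (1.22). Hspb11, which is the ciliary transport protein Ift25, was at 26.6, 12.7 and 19.6 FPKM, lower at P3 than at E18.5 (-1.01), just past the threshold. Dnajc12, which helps fold aromatic amino acid hydroxylases, was at 4.29, 2.79 and 7.33 FPKM, and Dnajc28 at 1.96, 0.742 and 3.77 FPKM. Both were higher at 10 weeks than at P3 (1.14 and 1.45). Apart from that of Hspa12b for P3 over E18.5, each of these calls is lost with a pseudocount of 5. The upper quartile also loses those of Hspa12b and Dnajc12 for 10 weeks over P3 and that of Hspa12a.

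Among genes without a call, Dnajc9, a histone chaperone, came close. It was at 43.9, 41.2 and 22.9 FPKM, with a difference of -0.91 for 10 weeks over E18.5 and -0.82 for 10 weeks over P3. All 10 proliferation markers were lower at 10 weeks than at P3 in value, and 9 of them by 2-fold, among them Mki67 (36.7, 47.2 and 6.04 FPKM). Dnajc17, a nuclear J protein linked to splicing, was at 7.64, 13.9 and 6.93 FPKM, and Dnajc2, which sits on ribosomes, at 18.7, 29.5 and 20.01 FPKM, both highest at P3. Dnajc17 came close as well, with -0.91 for 10 weeks over P3, and is called lower there with both other scalings. Dnajc8, another splicing factor, was at 60.2, 66.0 and 68.9 FPKM. Dnajc21 of ribosome maturation (12.7, 18.1 and 18.9 FPKM) and Dnajc24 of diphthamide synthesis (10.5, 8.53 and 9.71 FPKM) were likewise under 2-fold. Dnajc5, the vesicle protein CSP-alpha, was at 25.6, 33.7 and 32.0 FPKM, and Dnajc13 of endosomes at 12.6, 14.2 and 17.3 FPKM. Dnajc4 was at 18.0, 17.2 and 29.7 FPKM, and Dnajc16 and Dnajc25 lay between 3.91 and 7.74 FPKM. Hspa1l, Hspbap1, Dnajb3 and Dnajb13 stayed between 0.454 and 3.83 FPKM, and Dnajb3 shares its span with 8 Ugt1a rows.

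**Figure D4:**
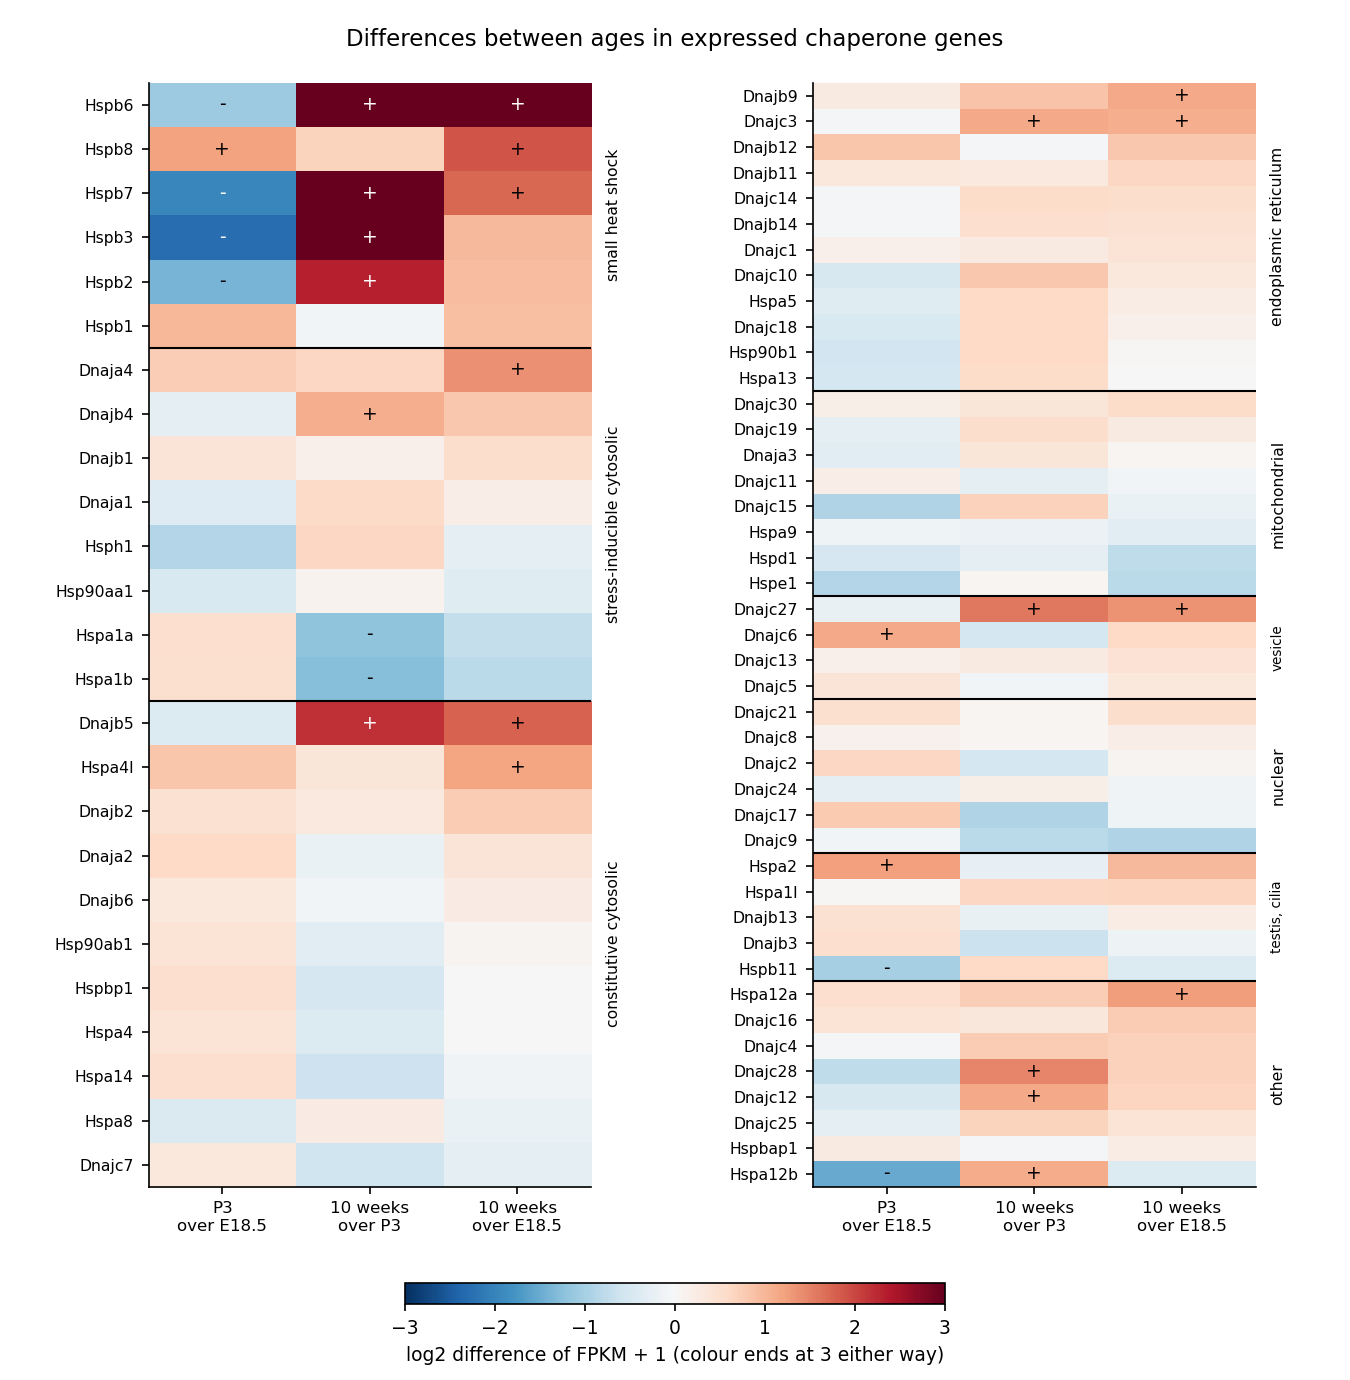
Log2 difference of FPKM + 1 for the 68 expressed chaperone genes (rows, by role) in the 3 comparisons (columns); red is higher and blue lower at the later age, and plus and minus signs mark 2-fold. The strongest colours are those of Hspb2, Hspb3, Hspb6 and Hspb7, and 47 of 68 rows carry no sign.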

How the data were processed

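RNA sequencing tables of mouse skin at E18.5, P3 and 10 weeks were used, 1 per age. RNA was extracted with Trizol and libraries were made with the TruSeq RNA kit, per the labels' protocols. The deposited values are FPKM, headed as averages per the file headers. TopHat2 2.0.7, Cufflinks 2.1.1 and the build mm9 are named in the submitters' processing notes. Which annotation and strand setting were used, how many reads there were and how multiply matching reads were handled is not stated in those sources. Short fragments and shared reads can therefore affect genes such as Hspa1a and Hspa1b.

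From these values log2 differences of FPKM + 1 were computed (Python 3.11.15, pandas 2.3.3) for the 3 pairs of ages, taking only genes that reached 1 FPKM at any age. The calling step was tested on simulated data. Values at 0 with a failure mark were left out, and none was a chaperone's. The replicate test foreseen was not used, since each age has 1 value. The starts of spans were raised by 1, because end minus start equalled the RefSeq length of 228 of 535 microRNA genes, against 4 for end minus start plus 1. The name rule uses no measured value, but this family, its roles and the lists were chosen with earlier results of these data known. Named were all expressed Hsp members, the Dnaj members of the stress-inducible, ER and mitochondrial groups, others past 2-fold, and abundant ones; a few further Dnaj genes were added after their values were seen. Of genes that are not members, the text names those past 2-fold in the co-chaperone and ER lists and some defining markers, with a few added after their values were seen. The 13 lists hold 185 genes, all found (Bag6 as Bat3). Other pseudocounts, filters and scalings were tried.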

Additional observations from a re-analysis of the deposited data

How the results depend on the processing

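Of 32 calls of a single chaperone gene in a comparison, 14 were kept under every alternative tried and none changed direction; they include all calls of Dnajb5 and Hspb8, the calls of Hspb2 and Hspb7, and those of Hspb3 and Hspb6 with 10 weeks. A pseudocount of 5 lost 17 calls. For P3 over E18.5 it left 1 member higher and 3 lower, for 10 weeks over P3 it left 5 higher and 1 lower, and for 10 weeks over E18.5 it left 5 higher. The shares of all genes were then 5.75% and 4.27%, 10.9% and 6.13%, and 8.69% and 3.83%. It also put the median of the small heat shock genes for P3 over E18.5 at -0.83, within 2-fold. Upper-quartile scaling left 7 higher and 4 lower at 10 weeks than at P3, and 5 higher and 5 lower at 10 weeks than at E18.5, with the small heat shock median for 10 weeks over E18.5 at 0.98. The median of ratios gave 3 lower at 10 weeks than at E18.5. Over all genes, upper-quartile scaling put 1607 higher and 1519 lower at 10 weeks than at E18.5, where the deposited scale put 2358 and 1014, and 2456 and 1834 at 10 weeks than at P3, where it put 2909 and 1462. For P3 over E18.5 these were 1113 and 1828, where the deposited scale put 1401 and 1380. A pseudocount of 0.1, both other filters, rescaling without the muscle list and leaving out Hspbp1, Hspbap1 and Hspb11 moved no count of called members by over 1.5 times in any comparison, though a pseudocount of 0.1 put 2155 of all genes lower at P3 against E18.5. The causes were not tested beyond the settings' own construction. No paired analysis was possible because each age has 1 averaged value, and for the same reason no replicate could be left out. Depth is unknown, so the precision of low values, such as that of Hspb3 at P3, cannot be stated.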

Other observations

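The 14 genes of the chaperonin TRiC and of prefoldin, which fold actin and tubulin, had a median difference of -0.31 for 10 weeks over P3 and of -0.23 for 10 weeks over E18.5, beside 0.14 and 0.22 for all genes, with 10 of 14 below 0 and 4 above 0 in each. None passed 2-fold in any comparison. Their median FPKM was 109.6, 117 and 84.9 at the 3 ages in order.

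The 16 genes of mitochondrial protein import and quality control, such as Trap1 and Lonp1, had medians of 28.8, 29.4 and 26.5 FPKM. None passed 2-fold on the deposited scale, and 11 of 16 were below 0 for 10 weeks over P3.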
